A study of Mus musculus with 22 samples.

Results

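A set of 1169 chromatin regions in the embryonic mouse telencephalon carried histone lactylation at embryonic day 13.5 (E13.5) and was called for acetylation and crotonylation of H3 lysine 9 at E16.5 but not at E13.5. The regions were chosen by peak calls. All peaks of 12 histone lists (H3K9ac, H3K9cr and H3K18la, 2 stages, 2 libraries each, chromosomes 1 to 19 and X) that shared 1 bp or more were joined, which gave 112550 regions. Those with a peak in all 4 E16.5 H3K9ac and H3K9cr lists, in none of the 4 E13.5 H3K9ac and H3K9cr lists and in both E13.5 H3K18la lists were taken. They are called lactylated gained regions here, as a short name for that rule. The gain of H3K9 acylation and the presence of E13.5 H3K18la are therefore the rule itself and not results. E13.5 ATAC-seq, RNA, position and sequence were not used to choose them. A peak of E16.5 H3K18la was not required, but its lists entered the joining and so could set the borders of a region. Without the first or the second of these lists 1169 and 1155 regions met the rule.

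All samples came from the telencephalon, the forebrain part that forms the cerebral cortex and basal ganglia, of ICR mice with no stated mutation or treatment. The groups used were H3K9ac, H3K9cr and H3K18la native ChIP-seq and RNA-seq of each stage, and ATAC-seq of the earlier one, with 2 libraries each that the series calls biological replicates. The series lists 22 samples in 11 groups, of which 4 inputs were not analysed here. The sources do not say how many embryos each library pools.

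Acetylation of H3 lysine 9 is placed by acetyltransferases at promoters and enhancers in use, and crotonylation of the same lysine uses crotonyl-CoA in place of acetyl-CoA and is usually found at the same places. Lactylation of H3 lysine 18 draws its group from lactate, the end product of glycolysis, and has been mapped at promoters and at enhancers of many tissues. ATAC-seq marks open chromatin, where a transposase can insert. Between the 2 stages the cortex passes from a tissue rich in dividing progenitors to one rich in young neurons that extend axons and begin to form synapses.

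Total RNA counts ranged from 17059544 to 18485855 per library. Peak lists held 28960 to 50656 peaks for H3K9ac and H3K9cr, 62068 to 76031 for H3K18la and 26442 to 28230 for ATAC-seq on the chromosomes used. The read depth behind the lists is unknown here. The E16.5 lists of H3K9ac and H3K9cr were all longer than the E13.5 lists of the same mark. Their median fold enrichment (defined below) was lower, with 7.86 and 7.43 for H3K9ac and 9.26 and 8.65 for H3K9cr. In the E13.5 lists it was 8.42 and 8.53 for H3K9ac and 12.1 and 14.4 for H3K9cr. Why the lists differ in length was not tested. With every histone list limited to its 28960 peaks of lowest q-value, 102 regions met the rule in place of 1169. Of the 102, 22 had exactly the borders of a region among the 1169, and borders can move with the lists. The limit also shortened the E13.5 H3K18la lists, from 73359 and 69145 peaks, and the part of each mark in the drop was not tested. All 10 telencephalon markers checked, among them Emx2 and Tbr1, were present in every RNA library, and Emx2 was lowest with 11.7 to 36.4 CPM, that is, counts scaled to a common library size. Of markers of other cells, those of blood vessels summed to 430 and 449 CPM in the E13.5 libraries and 866 and 898 in the later ones, and those of red blood cells to 1940 and 1910 and then 2610 and 3540. Those of microglia summed to 240 to 257 CPM in the 4 libraries and those of meninges and choroid plexus to 30.5 to 66.1. RNA levels below are CPM of the 2 E13.5 libraries and then of the 2 E16.5 libraries. In bulk tissue, fewer cells of a type and less RNA per cell cannot be told apart.

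A few promoter windows that overlap lactylated gained regions are printed first, with 250 bases before and 50 after an annotated start. A window can overlap a region and hold no E16.5 H3K9 summit, so it need not show the sequence under the gained marks. The printed windows come from RefSeq on GRCm38.p6, run 5′ to 3′ in the direction of transcription, and were picked after their values were seen. Capitals mark any of 10 short motifs that were searched on both strands. The motifs were the E-boxes CAGCTG and the related CAGATG, the AP-1 element TGANTCA, the cyclic AMP element TGACGTCA, the homeodomain core TAATTA, the Sox core ACAATG, the GC box GGGCGG, the YY1 core CCATNTT and the palindromes of NFI and of MEF2, and a capital run can be the reverse complement of a motif or 2 overlapping motifs. The first is an internal start of Camk1d, a calcium-dependent kinase, at chr2:5675997-5676296 on the minus strand, where 3 of the 4 E16.5 H3K9 summits fell inside the window. The second is an internal start of Tecta, which encodes an extracellular matrix protein, at chr9:42399898-42400197 on the minus strand. It holds 2 of the 4 summits. The third and the fourth are starts of the long noncoding RNA genes Gm33533 (chr1:36744394-36744693, minus strand) and Gm33447 (chr13:97375930-97376229, plus strand), where all 4 summits lay in the window. The fifth is an internal start of Sema6d, a transmembrane axon guidance protein, at chr2:124653331-124653630 on the plus strand. It holds none of the motifs and none of the 4 summits.
Camk1d: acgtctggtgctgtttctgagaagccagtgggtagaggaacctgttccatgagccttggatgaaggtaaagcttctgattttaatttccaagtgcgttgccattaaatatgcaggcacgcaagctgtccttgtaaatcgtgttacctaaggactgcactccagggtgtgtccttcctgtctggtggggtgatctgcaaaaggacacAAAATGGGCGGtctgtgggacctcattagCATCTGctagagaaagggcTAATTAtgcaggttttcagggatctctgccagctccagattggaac
Tecta: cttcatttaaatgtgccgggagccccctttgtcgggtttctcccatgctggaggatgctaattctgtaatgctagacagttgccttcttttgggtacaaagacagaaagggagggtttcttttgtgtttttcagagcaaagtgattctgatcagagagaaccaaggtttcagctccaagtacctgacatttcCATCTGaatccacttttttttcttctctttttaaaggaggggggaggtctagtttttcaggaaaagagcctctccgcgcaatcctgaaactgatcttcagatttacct
Gm33533: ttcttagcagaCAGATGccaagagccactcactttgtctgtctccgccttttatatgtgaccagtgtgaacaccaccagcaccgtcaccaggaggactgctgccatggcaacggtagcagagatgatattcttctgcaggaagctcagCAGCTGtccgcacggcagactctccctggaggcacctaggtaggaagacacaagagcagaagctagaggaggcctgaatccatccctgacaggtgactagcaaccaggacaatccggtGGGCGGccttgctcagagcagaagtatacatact
Gm33447: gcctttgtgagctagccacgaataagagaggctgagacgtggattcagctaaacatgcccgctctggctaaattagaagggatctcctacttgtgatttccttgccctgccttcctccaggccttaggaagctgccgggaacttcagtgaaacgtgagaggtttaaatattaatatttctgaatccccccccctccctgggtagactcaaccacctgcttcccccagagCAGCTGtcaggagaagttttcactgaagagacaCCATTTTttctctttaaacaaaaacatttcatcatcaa
Sema6d: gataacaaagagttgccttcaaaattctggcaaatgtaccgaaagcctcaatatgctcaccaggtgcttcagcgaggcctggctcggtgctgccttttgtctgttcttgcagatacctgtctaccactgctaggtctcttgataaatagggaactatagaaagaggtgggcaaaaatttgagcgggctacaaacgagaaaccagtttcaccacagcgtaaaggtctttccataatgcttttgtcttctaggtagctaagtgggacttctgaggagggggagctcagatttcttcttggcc

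In all, 45 of 32817 promoter windows, of 41 genes, overlapped a lactylated gained region. Some of them held no E16.5 H3K9 summit, so the values below describe promoters and not the sequence under the gained marks. These windows were poor in CG dinucleotides and GC boxes. A window held a median of 5 CG dinucleotides, against 7 over all windows and 21 over the 12840 windows in constant regions, which had peaks in all 8 H3K9ac and H3K9cr lists and in both E13.5 H3K18la lists. Median GC content was 46.7%, against 52.7% and 61.7%. GGGCGG, the core of the GC box bound by Sp factors, stood in 13.3% of the 45 windows, in 35.6% of all windows and in 64.5% of those in constant regions. The homeodomain core TAATTA stood in 20% (9 windows) against 5.30% of all windows, and the E-box CAGATG in 31.1% (14 windows) against 17.2%. The other shares were 22.2% against 16.3% for CAGCTG, 17.8% against 12.6% for ACAATG, 20% against 16.1% for CCATNTT, 8.89% against 7.81% for TGANTCA and 6.67% against 3.69% for the MEF2 motif. The NFI motif was found in 1 window (2.22%, against 0.808%) and TGACGTCA in 0 (against 1.79%). Starts were counted apart even where their windows nearly coincide. A GGGCGG site of Tox2 and an ACAATG site of Gm35763 thus entered these shares more than once. The 198 windows in regions with E13.5 H3K18la and no H3K9 acylation at either stage lay near those in lactylated gained regions, with a median of 4 CG dinucleotides, TAATTA in 12.6%, CAGATG in 24.7% and GGGCGG in 9.60%. Base composition differs between these sets and moves with the motif shares, and its part in them was not tested.

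The lactylated gained regions were weak for H3K9 marks. Their median width was 1714 bp (interquartile range 1300 to 2258 bp, extremes 354 and 7962 bp), near the 1702 bp of all regions with H3K18la in both E13.5 lists and above the 689 bp of all joined regions. The fold enrichment of a peak is the authors' own value, the pileup at its summit over the caller's local background. At E16.5 its median over the lactylated gained regions was 5.75 and 5.63 in the H3K9ac libraries and 5.08 and 4.95 in the H3K9cr libraries, against list medians of 7.86, 7.43, 9.26 and 8.65. The median peak in these regions stood at the 36.3rd and 37.2nd percentile of its H3K9ac list and at the 27.1st and 27.7th of its H3K9cr list. At E13.5 the H3K18la peaks there had median folds of 4.58 and 4.56, close to the list medians of 4.58 and 4.81. Lactylation was thus near the middle of its lists and H3K9 acylation in the lower part of its own.

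These values chose the members and carry no test. The weakest of a region's 4 E16.5 H3K9 peaks had a median −log10 q of 6.08, with 68 regions (5.82%) under 3 and 231 (19.8%) at 10 or more. Just outside the rule, 931 regions had a peak in 3 of the 4 E16.5 H3K9 lists and were otherwise alike, with a median −log10 q of 4.41 for the weakest peak. Another 1073 had a peak in 1 of the 4 E13.5 H3K9 lists, with a median −log10 q of 5.28 for that peak, and 599 had H3K18la in 1 of the 2 E13.5 lists. Lactylated gained regions were 6.54% of the 17885 regions with H3K18la in both E13.5 lists and no E13.5 H3K9 peak.

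Lactylation was still called at nearly all lactylated gained regions at E16.5. Both E16.5 H3K18la lists had a peak at 1019 of 1169 (87.2%), 1 list at 125 (10.7%) and none at 25 (2.14%). By library, the shares were 88.7% and 96.3%. Over all 47345 regions with H3K18la in both E13.5 lists, 70.1% kept it in both E16.5 lists. In the 12827 regions with E13.5 H3K18la and no H3K9 acylation at either stage the share was 31.5%, with 36.7% and 55.1% by library. Constant regions (19829) had 91.6%. The 1361 regions that gained all 4 H3K9 peaks without E13.5 H3K18la had 34.5%, and were narrower, with a median width of 803 bp against 1714 bp. The lactylated gained regions thus stood next to the constant ones and above both other sets in each library. The set gained without E13.5 H3K18la was chosen for lacking the same mark at E13.5. The part of that choice in its share was not tested. No p is given, since the regions of a library are not replicates and each stage had 2 libraries.

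**Figure D1:**
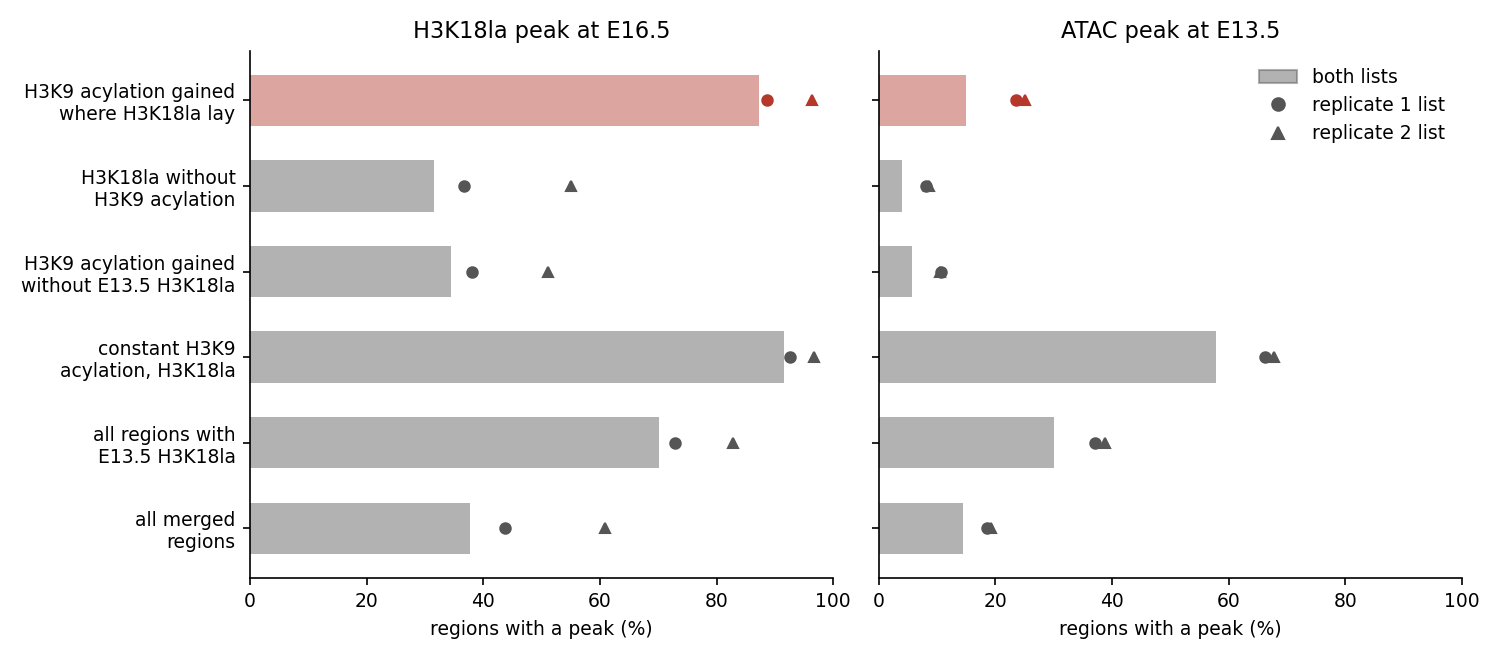
Percent of regions with an H3K18la peak at E16.5 (left) and an ATAC peak at E13.5 (right) in 6 sets of regions; bars need a peak in both lists, circles and triangles show each library's list. Lactylated gained regions (red) reach 87.2% for E16.5 H3K18la and 14.9% for ATAC.

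A wide merged region has more room for a peak, so the share was also taken over the E13.5 H3K18la peaks alone. E16.5 H3K18la peaks of both lists overlapped those peaks in 86.4% of lactylated gained regions, 31.1% of regions without H3K9 acylation and 91.4% of constant regions. The covered length of E13.5 H3K18la differed as well. In lactylated gained regions with at most 648 bp of it, 77.2% kept H3K18la in both lists, against 20.2% of regions without H3K9 acylation. From 648 to 1151 bp the shares were 89.2% and 38.6%, and above 1151 bp they were 95.1% and 65.6%. The difference was present in each range and smaller in the long one. Neither check can be made for regions gained without E13.5 H3K18la, which hold no such peak, so the part of width in their lower share was not tested.

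Peaks of H3K18la at lactylated gained regions were weaker at E13.5 than those of lactylated regions in general. Their median E13.5 folds of 4.58 and 4.56 compare with 5.62 and 5.69 over all regions with H3K18la in both E13.5 lists. In the E16.5 libraries the medians were 5.88 and 6.31, against 6.14 and 6.15 over those regions that had a peak. In the E16.5 libraries the lists had medians of 4.86 and 4.59, and median peak length was 711 and 1336 bp against 486 and 650 bp. The E13.5 lengths were 705 and 621 bp against list medians of 635 and 648 bp. Lists of different length and depth do not allow a change in fold or length between stages to be read from these numbers. Regions without H3K9 acylation had E16.5 medians of 4.35 and 4.21.

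The number of E16.5 H3K9 lists that called a region ordered the other readouts. Among regions with H3K18la in both E13.5 lists and no E13.5 H3K9 peak, E16.5 H3K18la was in both lists at 31.5% of those with 0 E16.5 H3K9 lists, then 62.1%, 68.1%, 75.6% and 87.2% with 1, 2, 3 and 4 (12827, 1799, 1159, 931 and 1169 regions). ATAC peaks in both E13.5 lists followed the same order, with 4.01%, 7.89%, 11.2%, 13.5% and 14.9%. The E13.5 H3K18la fold did not: its median was 4.33 with 0 lists and 4.53 to 4.58 with 1 to 4 in the first library, and 4.21 and then 4.51 to 4.58 in the second. These peaks had a median length of 543 bp with 0 lists and 678 to 705 bp with 1 to 4 in the first library. In the second library it was 492 bp and then 600 to 621 bp. Median width went with the count too, from 820 bp with 0 lists to 1309, 1355, 1482 and 1714 bp, and its part in the order was not tested beyond the length ranges above.

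**Figure D2:**
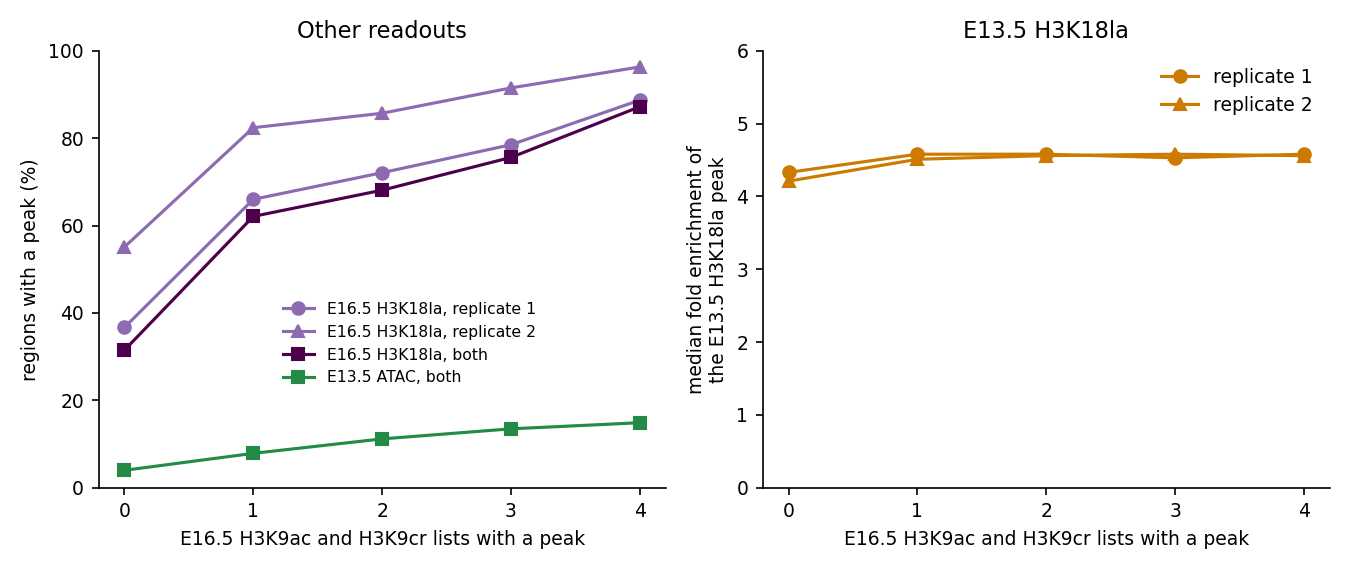
Regions with E13.5 H3K18la and no E13.5 H3K9 peak, by the number of E16.5 H3K9ac and H3K9cr lists that called them (0 to 4). Left, percent with an E16.5 H3K18la or E13.5 ATAC peak, which goes up from 31.5% to 87.2% and from 4.01% to 14.9%; right, median fold enrichment of the E13.5 H3K18la peaks, which lies between 4.21 and 4.58.

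Most lactylated gained regions were not called open at E13.5. Both ATAC lists had a peak at 174 (14.9%), 1 list at 221 (18.9%) and none at 774 (66.2%). Over all merged regions 14.4% had a peak in both lists, and over all regions with H3K18la in both E13.5 lists 30.0%. With histone lists of equal length the share was 33.3% of 102 regions, against 30.9% and 47.7% for these 2 backgrounds, so in both settings it was near the first and below the second. With the full lists it lay above the 4.01% of regions with E13.5 H3K18la and no H3K9 acylation and the 5.73% of regions gained without E13.5 H3K18la, and far below the 57.9% of constant regions. The sets with 4.01% and 5.73% were narrower, with median widths of 820 and 803 bp against 1714 bp. ATAC peaks that overlapped the E13.5 H3K18la peaks themselves in both lists were found in 11.0% of lactylated gained regions and 3.47% of those without H3K9 acylation. Lactylated gained regions with both ATAC peaks had median H3K9ac folds of 6.17 and 6.12 and those with none 5.61 and 5.63. Their E16.5 H3K18la shares were 89.1% and 85.9%.

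Acetylation and crotonylation were called at almost the same spots. The distance between the H3K9ac and H3K9cr summits of a region had a median of 79 bp in the first E16.5 libraries and 73 bp in the second, near the 75 bp between the H3K9ac libraries and the 76 bp between the H3K9cr libraries. The E13.5 H3K18la summit lay farther off, at a median of 298 and 314 bp from the E16.5 H3K9ac summit. The E16.5 H3K18la summit lay at 191 and 213.5 bp. The H3K18la summits themselves were less well placed, with 155 bp between the E13.5 libraries and 103 bp between the E16.5 libraries. Peaks of the 4 H3K9 lists overlapped an E13.5 H3K18la peak directly, and not only through merging, in 1123 regions (96.1%). Where an ATAC peak was present its summit lay 204.5 and 201 bp from that of H3K9ac.

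**Figure D3:**
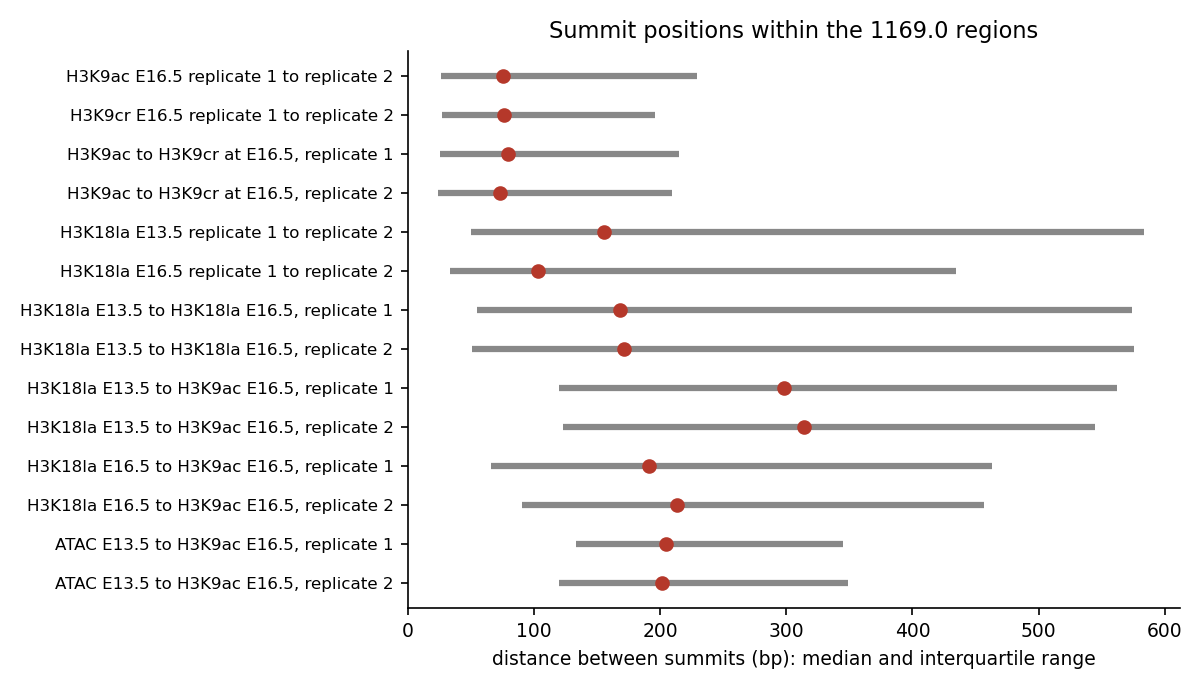
Distance in bp between the summits of pairs of peaks in the same lactylated gained region; points are medians and bars interquartile ranges. H3K9ac and H3K9cr summits lie 73 to 79 bp apart, and E13.5 H3K18la summits lie 298 and 314 bp from those of E16.5 H3K9ac.

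Within the set, the folds of the H3K9 marks went together. H3K9ac folds went weakly with those of E16.5 H3K18la and hardly with those of E13.5 H3K18la. Across the 1169 regions the Spearman correlation of fold was 0.49 between the H3K9ac libraries, 0.499 between the H3K9cr libraries and 0.534 and 0.59 between the marks in libraries of the same number. It was 0.428 between H3K9ac of the first and H3K9cr of the second libraries, below both values within a number. The other pair of the marks across numbers was not calculated. Between H3K9ac and E16.5 H3K18la of the same number it was 0.288 (1037 regions) and 0.24 (1126), across numbers 0.203 (1126), and with E13.5 H3K18la 0.0178 and −0.0196. Regions share their libraries, so these are descriptions. A region was chosen only if its E16.5 H3K9 and E13.5 H3K18la peaks were called, which limits the range of their folds. A value near 0 in such a set does not show that the strengths are unrelated.

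The lactylated gained regions were mostly far from promoters. Of 1169, 101 (8.64%) lay within 2000 bp of a gene start, 492 (42.1%) elsewhere in a protein-coding gene and 576 (49.3%) between genes. Of constant regions 61.1% were at starts, and of regions with H3K18la and no H3K9 acylation 6.77%. The median distance to the nearest protein-coding start was 81820 bp, and 745 regions (63.7%) were over 50 kb away. They were spread out: the nearest other lactylated gained region was a median of 513504 bp off and 3.42% had one within 10 kb, while a constant region lay within 10 kb of 19.9%. Strength hardly varied with position, with H3K9ac medians of 5.75 and 5.45 at starts, 5.52 and 5.63 in gene bodies and 5.89 and 5.63 between genes. Chromosome X held 5, which was 0.646% of its regions with E13.5 H3K18la, against 1.59% to 3.57% on the autosomes.

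The 10 regions with the highest mean E16.5 H3K9 fold were nearly all distal, with 7 between genes, and each had an ATAC peak in at least 1 list. The first, chr2:55227190-55229031 (GRCm38), lay 206939 bp from the start of Kcnj3, an inwardly rectifying potassium channel. Its H3K9ac folds were 20.5 and 15.4, its H3K9cr folds 14.4 and 16.6, its E13.5 H3K18la folds 6.03 and 3.51 and its E16.5 H3K18la folds 7.93 and 11.9. ATAC folds there were 4.63 and 5.64. A second, chr9:77250737-77252909, lay inside Mlip, a gene best known in heart and muscle, with H3K9ac folds of 17.1 and 14.4 and H3K9cr folds of 16.9 and 15.6. A region at chr5:39802794-39805188, 158163 bp from Hs3st1, a heparan sulfate sulfotransferase gene, had H3K9cr folds of 17.7 and 15.3 and ATAC folds of 7.999 and 11.9.

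A strong region lay near a gene of blood vessels. That at chr16:95596426-95598524 lay 9833 bp from a start of Erg, an endothelial and blood transcription factor, with H3K9cr folds of 19.7 and 15.5. Its H3K18la folds were 4.37 and 4.13 in the E13.5 libraries, then 12.1 and 15.4. These folds come from lists of different length and depth, so no change between stages is read from them. The summed vessel markers given above were higher in the E16.5 libraries, and the part of vessels in the signal of this region was not tested. The region at chr10:70296460-70297583, 51184 bp from the transporter gene Slc16a9, was the 1 region of the 10 without both E16.5 H3K18la peaks, with a fold of 4.02 in the second library and no peak in the first. The widest lactylated gained region of all, chr2:43782466-43790427, covered an internal start of Arhgap15, a Rac-regulating protein, with H3K18la folds of 11.7 and 11.2 in the E13.5 libraries, then 6.92 and 7.27. RNA of Arhgap15 was near 0 in all libraries (0.601, 0.276, 0.0559 and 0.708 CPM). The others lay 174409 bp from Shq1, 41516 bp from Neil3, 267083 bp from Atp2b1 and inside Galntl6.

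Genes with a lactylated gained region at a start were few and mostly noncoding. There were 105, of which 28 were protein-coding and 77 long noncoding, and 22, all protein-coding, had enough counts for the RNA test. Of the 22, 14 (63.6%) were higher and 3 (13.6%) lower at E16.5 (edgeR, adjusted p under 0.05), with a median log2 change of 0.72. Over all 16237 tested genes 28.4% were higher and 29.2% lower, with a median of 0.01. Genes with a region gained without E13.5 H3K18la at a start were higher more often, with 72.3% higher and 3.57% lower of 112 tested. The 22 genes had a median length of 122 kb, and 8 of the 13 over 100 kb were higher. Of all tested protein-coding genes over 100 kb, 45.6% were higher. For 38 of the 105 the table gave no strand, so their region may lie at the far end of the gene. Another 10 had a region at an internal start only. The counts depend on the peak threshold: regions from peaks with a −log10 q of at least 5 gave 8 higher and 5 lower of 19, and those from lists of equal length 0 higher and 1 lower of 4.

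Lingo1 and Foxp1 were higher at E16.5 and each held 3 lactylated gained regions. Lingo1, a membrane protein that restrains myelination and axon growth, had 29.2 and 31.7 and then 115 and 119.7 CPM (log2 change 1.95, SE 0.0633, edgeR adjusted p = 5.2e-07). It held 3 lactylated gained regions, 1 of them 1645 bp from an internal start. Foxp1, a transcription factor of striatal and cortical neurons, had 82.9 and 75.05 and then 168 and 179 CPM (log2 change 1.13, SE 0.0650, edgeR adjusted p = 4.3e-06). Of its 3 regions, that at chr6:99263053-99265138, 1377 bp from an internal start, had H3K9cr folds of 14.8 and 12.9, while that at chr6:99275392-99276137 had no E16.5 H3K18la peak.

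Other rises at starts covered several kinds of gene. For Col12a1, Zfp704, Atp10b, Triqk and Poglut3 no strand was given, so their regions may lie at the far gene end. Those of Camk1d and Jakmip1 lay at internal starts. Synj2, an inositol phosphatase of membrane traffic, had 0.841 and 0.441 CPM and then 2.35 and 2.89 (log2 change 2.03). Tecta had 1.14 and 0.993 and then 3.85 and 3.60 CPM, and Camk1d 15.7 and 17.98 and then 29.4 and 28.6. The matrix collagen gene Col12a1 went from 11.2 and 11.2 to 23.7 and 25.1 CPM, and Jakmip1, a microtubule-binding protein of neurons, from 21.5 and 19.1 to 53.5 and 35.4. Zfp704, a zinc finger gene, went from 165 and 164 to 252 and 273 CPM. No overlap between the stages was a condition for naming these genes and is no result. Atp10b (log2 change 1.77), Triqk (0.66), Poglut3 (0.63) and F3 (0.76), which encodes tissue factor, rose too, but all 4 calls were lost with DESeq2 (adjusted p = 0.169, 0.109, 0.199 and 0.111), which left 10 of the 14. They were also lost without the first library of either stage (adjusted p = 0.0634 and 0.182 for Triqk, 0.0918 and 0.163 for F3, 0.087 and 0.201 for Atp10b, 0.0665 and 0.112 for Poglut3, edgeR). Those of Atp10b and Poglut3 were lost without the second E13.5 library as well (adjusted p = 0.11 and 0.137, edgeR), and that of Poglut3 also when E16.5 replicate 2 was left out (adjusted p = 0.155, edgeR) or low counts were kept (adjusted p = 0.0722, edgeR).

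P2ry12, the purinergic receptor that marks microglia, had 7.21 and 8.99 and then 13.5 and 14.7 CPM (log2 change 0.79, edgeR adjusted p = 0.00262). Its region, chr3:59261568-59262951, ended 34 bp from the start. Of 14 microglial genes tested 12 were higher at E16.5, while their summed level moved little, as given above, and the part of microglia in the P2ry12 values was not tested.

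The 3 genes that fell were Nxph4, Sema6d and Tox2. For Nxph4 no strand was given, so its region may lie at the far gene end, and those of Sema6d and Tox2 lay at internal starts. Nxph4, which encodes a neurexophilin, had 31.3 and 24.4 CPM and then 17.2 and 17.7 (log2 change −0.68, edgeR adjusted p = 0.00275). Sema6d had 253 and 239.8 and then 176 and 186 CPM (log2 change −0.44, edgeR adjusted p = 2.3e-04), although its region showed H3K9ac folds of 9.82 and 6.66 at E16.5. Tox2, an HMG-box factor, had 28.2 and 33.03 and then 23.3 and 25.5 CPM, and its call was lost with DESeq2 (adjusted p = 0.0835), under upper-quartile scaling (adjusted p = 0.0921) and without E13.5 replicate 2 (adjusted p = 0.179) or E16.5 replicate 1 (adjusted p = 0.0796, edgeR). The genes that did not pass were 4933402D24Rik, Acot11, Mrtfa, Schip1 and Arhgap15. Mrtfa, a serum response cofactor, had 55.4 and 52.5 and then 53.8 and 57.1 CPM.

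Genes with a lactylated gained region in the body only were long and often higher at E16.5. There were 449, all protein-coding by construction, and 407 were tested, with 224 (55.0%) higher, 72 (17.7%) lower and 111 not passed, and a median log2 change of 0.38. Their median length was 232 kb, and long genes of this tissue were higher more often whether or not they held a lactylated gained region. Of the 2185 tested protein-coding genes over 100 kb, 45.6% were higher and 22.9% lower. Below 100 kb, 47.3% of 74 genes with a lactylated gained region were higher, against 27.5% of all protein-coding genes and 40.4% of those with an unacylated H3K18la region in the body. From 100 to 200 kb the shares were 49.0%, 39.6% and 40.8%, and from 200 to 400 kb 56.1%, 46.8% and 46.6%. Above 400 kb they were 64.5%, 66.8% and 66.2%. The sets overlap, since 18, 57, 94 and 92 genes of the 4 length ranges held both kinds of region. Among genes with an unacylated region and no lactylated gained region in the body, the shares were 39.9%, 40.6%, 43.6% and 67.8%. In the longest genes the share was thus at the background, and in shorter ones above it, with no test made of these shares. With regions from lists of equal length, 34 genes were tested and 13 were higher and 9 lower.

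**Figure D4:**
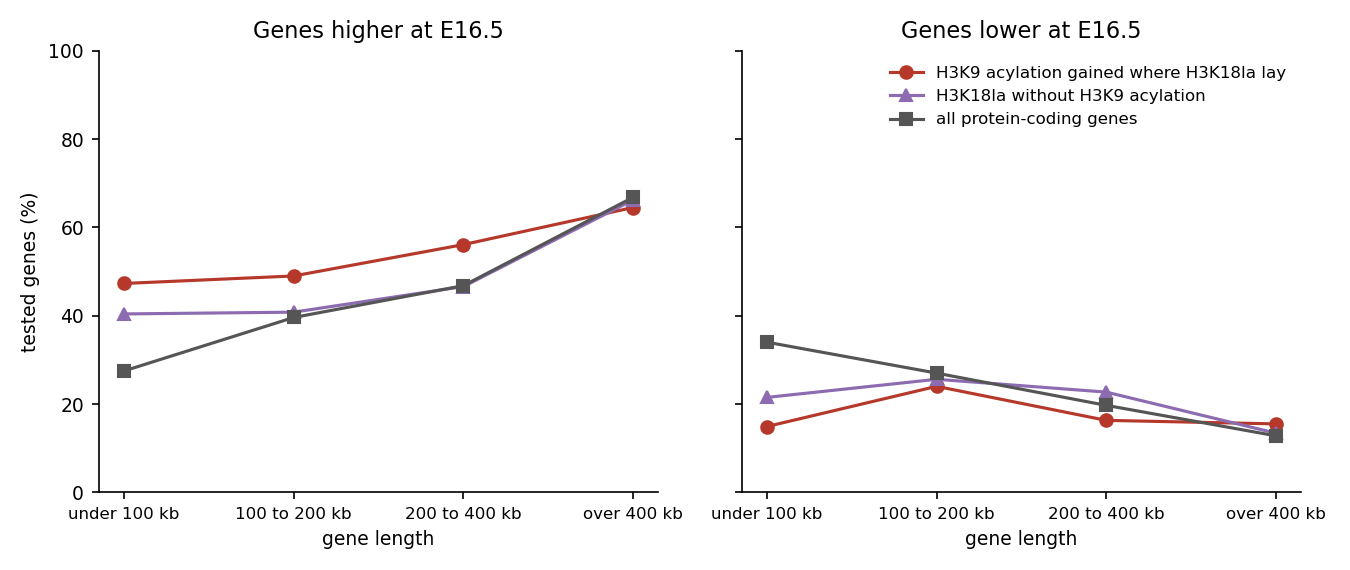
Percent of tested genes higher (left) and lower (right) at E16.5 by gene length, for genes with a lactylated gained region in the body only (red circles), genes with an unacylated E13.5 H3K18la region in the body only (purple triangles) and all protein-coding genes (grey squares). Above 400 kb the 3 shares of higher genes are 64.5%, 66.2% and 66.8%, and below 100 kb they are 47.3%, 40.4% and 27.5%.

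For regions between genes, the nearest protein-coding start gave 399 tested genes, of which 42.4% were higher and 27.3% lower, with a median log2 change of 0.13. Over all tested protein-coding genes with a RefSeq position, 30.3% were higher and 32.3% lower. Median gene length was 62.2 kb in the first set and 25.5 kb in the second, and the part of length in the difference was not tested. Most linked genes held 1 lactylated gained region (495 genes), and 50, 5 and 4 genes held 2, 3 and 4. Of the 54 tested genes with at least 2, 68.5% were higher and 14.8% lower. Their median length was 431 kb. Of all tested protein-coding genes, 66.8% of those over 400 kb and 46.8% of those from 200 to 400 kb were higher. The part of length in the 68.5% was not tested.

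Receptors for neurotransmitters that held a region were higher at E16.5. Of 47 receptor genes, 7 held a lactylated gained region (among them Grm5, Gabrb1, Gabbr2 and Gria1) and all 7 were higher at E16.5, with a median log2 change of 2.0. The list as a whole rose alike, with 43 of 47 higher and a median of 1.5. Grm5 (ENSMUSG00000049583.15), a metabotropic glutamate receptor, had 11.4 and 10.4 and then 109 and 115 CPM (log2 change 3.37, SE 0.0729, edgeR adjusted p = 2.1e-07). Its region at chr7:87937928-87939031, 196032 bp from the start, had H3K9ac folds of 6.45 and 6.15 and an E16.5 H3K18la peak in the second library only. Gabrb1, a subunit of GABA-A receptors, had 3.96 and 2.81 and then 28.9 and 26.3 CPM (log2 change 3.03, SE 0.166, edgeR adjusted p = 3.5e-06). Gabbr2, a subunit of the metabotropic GABA-B receptor, had 9.73 and 8.71 and then 60.1 and 62.6 CPM (log2 change 2.73, SE 0.0890, edgeR adjusted p = 5.2e-07) and held 2 regions.

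Synaptic genes and most channel genes with a lactylated gained region were higher too. All 3 presynaptic genes were higher: Unc13c, a vesicle priming factor, with 1.501 and 1.32 and then 7.71 and 8.17 CPM, the vesicle protein gene Sv2b with 10.3 and 9.82 and then 18.8 and 17.7, and the adhesion gene Nrxn3 (log2 change 0.49). On the postsynaptic side Dlg2, a scaffold of glutamate receptors, had 31.8 and 30.2 and then 129 and 136 CPM (log2 change 2.10), and its partner Dlgap1 had 29.1 and 41.9 and then 74.1 and 82.0. Lrfn2, a synaptic adhesion protein, also rose (log2 change 1.37). The lists hold 33 and 35 genes, of which 29 and 28 were higher overall.

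Among 4 potassium channel genes, Kcnq5, which carries the M-current, had 4.44 and 4.25 and then 25.4 and 27.2 CPM (log2 change 2.60). Kcnj6 rose from 0.3003 and 0.827 to 1.68 and 2.34 CPM (edgeR adjusted p = 0.0149), a call lost without the first E13.5 or the second E16.5 library (adjusted p = 0.0574 and 0.0969, edgeR). Kcnn2 did not pass, with 38.6 and 35.6 and then 38.4 and 37.2 CPM. The calcium channel genes Cacna1e (74.9 and 66.1, then 235 and 231 CPM), Cacna2d3 (13.5 and 13.6, then 33.7 and 33.7 CPM) and Cacna2d1 (log2 change 0.21) were all higher, the last not without the second E13.5 library (adjusted p = 0.0805, edgeR). Of all 45 potassium channel genes 35 were higher and 2 lower, and of 31 tested calcium and sodium channel genes 27 were higher and 0 lower, so the linked genes lay near their lists.

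**Figure D5:**
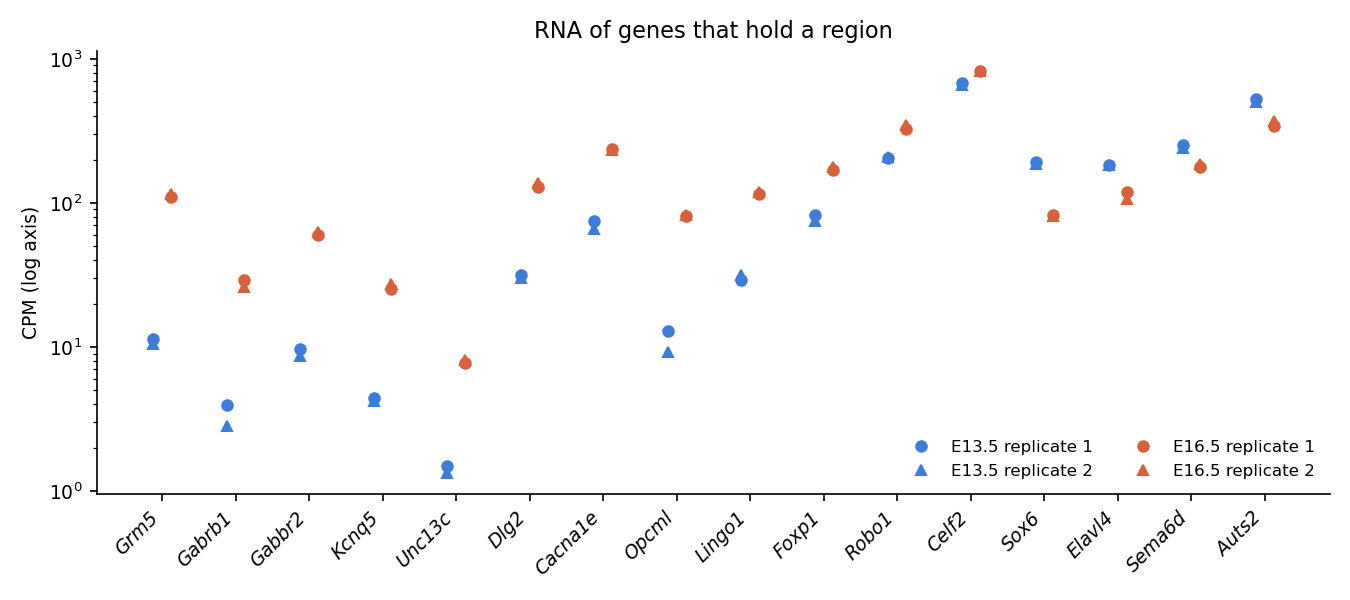
RNA level in CPM, on a log axis, of 16 genes that hold a lactylated gained region, in the 2 E13.5 (blue) and 2 E16.5 (orange) libraries, with circles for replicate 1 and triangles for replicate 2. Grm5 goes from 11.4 and 10.4 to 109 and 115 CPM, and Sox6 from 192 and 188 to 82.0 and 81.0.

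Genes of axon guidance and growth moved in both directions. Of 9 with a lactylated gained region, 6 were higher (Robo1, Robo2, Epha7, Ephb1, Gap43 and Nrp2), 2 lower (Sema6d and Epha4) and Epha5 did not pass (log2 change −0.17, edgeR adjusted p = 0.0545). Epha5 was called as lower with a replicate block (adjusted p = 0.0273), with no filter on low counts (0.0105) and without the second E13.5 library (0.00403, edgeR), and with DESeq2 (adjusted p = 0.0251). Over the list of 52, 32 were higher and 12 lower. Robo1, a receptor for the repellent Slit, had 203 and 208 CPM and then 327 and 347, and held 2 regions. The ephrin receptor gene Epha7 went from 40.8 and 42.1 to 76.0 and 83.9 CPM and Ephb1 from 75.6 and 76.2 to 127 and 135. Epha4 went from 377 and 360.4 to 321 and 323 CPM (edgeR adjusted p = 0.00571), which was not called under upper-quartile scaling (adjusted p = 0.0774).

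Transcription factors and lineage genes were mixed as well. The deep-layer genes Ldb2, with 4 regions and 18.5 and 16.3 and then 34.4 and 41.6 CPM, and Pcp4 (16.8 and 11.2, then 21.3 and 22.1 CPM) rose. Over the 12 deep-layer genes 7 were higher and 4 lower. Elavl4, an RNA-binding protein of newborn neurons, fell from 184 and 183 to 119 and 106 CPM. Of 13 tested oligodendrocyte lineage genes 8 were higher and 3 lower, and 4 held a region. Of the 4, Opcml, an adhesion protein that neurons express too, rose from 12.9 and 9.21 to 81.1 and 82.0 CPM, and Lhfpl3 rose from 3.54 and 4.03 to 11.2 and 12.2. Sox6, a factor also of progenitors, fell from 192 and 188 to 82.0 and 81.0 CPM, and its region had no E16.5 H3K18la peak. Mbp, the myelin basic protein gene, went from 26.6 and 28.6 to 23.2 and 18.6 CPM (edgeR adjusted p = 0.0221), a call lost with DESeq2 (adjusted p = 0.0523), under upper-quartile scaling (adjusted p = 0.0570) and without the second E13.5 or the second E16.5 library (adjusted p = 0.0669 and 0.0862, edgeR).

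Of 22 nuclear receptor genes 14 were higher and 4 lower, and 4 held a region. Of the 4, Nr3c2, which encodes the mineralocorticoid receptor, rose from 0.360 and 0.496 to 3.85 and 4.52 CPM (log2 change 3.26, edgeR adjusted p = 1.2e-04). Rarb, a retinoic acid receptor, rose from 3.96 and 4.30 to 13.1 and 14.2 CPM, and Rxra fell from 35.8 and 35.7 to 21.9 and 19.6. Thrb, a thyroid hormone receptor, did not pass, with 2.10 and 2.15 and then 2.79 and 2.67 CPM. Npas4, an activity-induced factor, rose from 3.72 and 4.58 to 11.7 and 17.1 CPM, and Zbtb20 from 279 and 314 to 365 and 378. Bcl11a went from 499.7 and 450.4 to 431 and 427 CPM (edgeR adjusted p = 0.0438), and that call was lost under upper-quartile scaling (adjusted p = 0.404) and without the first E13.5, the first E16.5 or the second E16.5 library (adjusted p = 0.304, 0.0534 and 0.0790, edgeR). The deacetylase genes Hdac4 and Hdac9 each held a region and did not pass, with 57.4 and 55.1 and then 58.3 and 62.4 CPM for Hdac4. The ventral factor Ebf1 did not pass either (adjusted p = 0.0853, edgeR). Under upper-quartile scaling Hdac4 (log2 change 0.19, edgeR adjusted p = 0.0302) and Ebf1 (log2 change 0.24, edgeR adjusted p = 0.0133) were called as higher.

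No lactylated gained region lay at or in a gene of the lists for telencephalon identity, radial glia, upper-layer neurons, the astrocyte lineage, vessels, red blood cells, meninges and choroid plexus, or the cell cycle, which hold 10, 14, 12, 28, 16, 12, 14 and 20 genes. Of all 21631 protein-coding genes 477 (2.21%) held one at a start or in the body, so lists of this size can hold 0 at the background share, and nothing is read from it.

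The 9 genes with 3 or more lactylated gained regions were long, from 177851 bp for Lingo1 to 1134695 bp for Opcml. Opcml, Ldb2, Celf2 and Lrmda held 4 each, and Lingo1, Foxp1, Auts2, Nav2 and Nav3 held 3. Celf2, a splicing regulator of neurons, went from 679 and 659 to 825 and 819.7 CPM. Of its regions, chr2:6730008-6733068 had H3K9ac folds of 9.54 and 10.8, while chr2:6599135-6600647 had 3.93 and 3.84. Nav2 and Nav3, which encode microtubule-binding proteins of growing axons, went from 64.9 and 57.6 to 176 and 198 CPM and from 67.9 and 64.0 to 134 and 132. Auts2, a nuclear and cytoskeletal protein of neurons, fell from 528 and 500.4 to 339 and 372 CPM (log2 change −0.53, SE 0.0541, edgeR adjusted p = 8.2e-05). RNA of Lrmda was not tested. Of the 91 lactylated gained regions of all genes named by rule, 79 had H3K18la in both E16.5 lists and 27 an ATAC peak in at least 1 list.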

How the data were processed

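The members and the 23 gene lists were chosen with earlier results of these data known. The submitters' processing notes name GRCm38, Bowtie2 2.4.1 and MACS2 2.2.7.1 for the peak lists, of which each library has 1. Per the file headers, a peak has a pileup signal, a −log10 p-value, a −log10 q-value and a ratio (fold enrichment). All lists ended at a −log10 q of 2. For the control, duplicate reads and caller settings, nothing was stated in the sources.

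RNA values were the authors' expected counts, made with Salmon 1.1.0, and 24.4% to 25.3% of values per library were not whole. A second deposited table gave log2 fold changes and p-values from DESeq2 1.26.0, per the submitters' processing notes. There, in the authors' deposited table, start-linked genes numbered 10 higher and 2 lower and body-linked genes 205 and 56.

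The stages were compared on rounded counts with edgeR 4.0.16 (quasi-likelihood, TMM, filterByExpr) in R 4.3.3. The fit left 2 residual degrees of freedom and used Benjamini-Hochberg adjustment over 16237 genes. Libraries of a stage differed by more than counting noise (chi-square per degree of freedom 5.64 and 7.36). If biological replicates were not separate litters, p-values measure only the spread between these libraries. Regions were merged in Python 3.11.15. A region belongs to a gene start within 2000 bp. Of 21631 RefSeq protein-coding genes, 79.9% had a start by strand, and for the rest both gene ends were used. RNA rows were matched for 26032 of 34328 genes. Strand use in counting is not given, so antisense and overlapping genes cannot be told apart.

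Named by rule were up to 12 rises and 12 falls at starts with an adjusted p under 0.05, a mean of at least 1 CPM and no overlap between stages. To these came up to 3 rising and 2 falling members per list with the members that did not pass, the genes with most regions, and the 10 strongest regions with the 6 strongest with both ATAC lists, which were among the 10. Some genes that the rule names are not reported here. The plan called for sequence around the summits of these regions. No genome was used here, so promoter windows were printed. Alternatives were DESeq2 1.42.0, upper-quartile scaling, no filter, a replicate block, other peak thresholds, list lengths, merging and windows, and leaving out each library. The statistics were tested on simulated data.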

Additional observations from a re-analysis of the deposited data

How the results depend on the processing

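The count of 1169 regions was 858 with peaks of −log10 q of at least 5, 1155 with E16.5 H3K9ac replicate 1 peaks as regions, and 102 with lists of equal length. The E16.5 H3K18la share (87.2%) was 85.1%, 84.9% and 89.2% there, the ATAC share (14.9%) 11.2%, 11.8% and 33.3%, and the share at starts 8.51%, 8.23% and 5.88%. With equal lengths, regions with H3K18la and no H3K9 acylation had 29.1% and 16%. ATAC peaks on the E13.5 H3K18la peaks alone, an alternative chosen after seeing the data, gave 11.0%, and H3K18la peaks 86.4%. Leaving out 1 histone library gave 1155 to 1711 regions, 13.1% to 16.2% with ATAC and 8.33% to 9.12% at starts. The count was largest without the first E13.5 H3K9ac library. The E16.5 H3K18la share was 82.7% to 88.1% where both E16.5 lists of that mark were kept. Without the first or the second of them only the other list was asked for, and the shares were 96.3% and 88.4%. Windows of 500 and 5000 bp put 5.47% and 16.1% at starts, with 9 and 29 start-linked genes higher (2 and 8 lower) against 14 and 3. Equal lengths gave 0 higher and 1 lower at starts and 13 and 9 in bodies, and the stricter threshold 8 and 5 at starts.

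Replicate numbers only share a label across stages (correlation of same-numbered deviations 0.125). With replicate number as a block, 14 and 3 start-linked and 228 and 74 body-linked genes were called, and Epha5 passed (adjusted p = 0.0273, edgeR). Without single RNA libraries 10 to 13 start-linked genes were higher and 2 to 3 lower, and 211 to 221 and 61 to 66 body-linked. Of genes that did not pass in any setting, leaving out single libraries moved the log2 change across 0, from −0.04 to 0.08 for Kcnn2, −0.13 to 0.72 for 4933402D24Rik, −0.05 to 0.41 for Acot11, −0.01 to 0.07 for Mrtfa and −2.81 to 0.68 for Arhgap15. Schip1 was at 0.0 under upper-quartile scaling. The median log2 change over all genes was 0.09 higher under upper-quartile scaling. The lone library left in a stage was assumed to vary like the other stage. Peak depth is unknown, so an absent call is not an absent mark.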

Other observations

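Among genes with a lactylated gained region in the body only and a mean of at least 10 CPM, the largest changes outside the lists were picked after their values were seen. Shisa9, an auxiliary subunit of AMPA receptors, rose from 5.10 and 4.47 CPM at E13.5 to 36.6 and 35.3 at E16.5 (log2 change 2.91, SE 0.118, edgeR adjusted p = 1.1e-06). Plppr5, a membrane protein of growing neurites, rose from 5.04 and 3.58 to 28.9 and 31.4 CPM, and Dync1i1, the neuronal dynein intermediate chain, from 10.6 and 7.995 to 55.3 and 54.6. Gnal, the G protein subunit of striatal and olfactory neurons, rose from 27.4 and 24.4 to 133 and 134.0 CPM. Trpm3, a cation channel gene, rose from 6.31 and 9.82 to 43.9 and 42.0 CPM.

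Falls in that set were picked in the same way. The DNA repair gene Brca1 fell from 41.4 and 45.6 to 15.9 and 15.5 CPM (log2 change −1.47, SE 0.0910, edgeR adjusted p = 6.2e-06), and Mms22l, a replication repair gene, from 73.7 and 69.5 to 27.5 and 24.6. Gli2, a hedgehog pathway factor, fell from 86.1 and 83.5 to 36.3 and 33.6 CPM, and Palld, an actin-binding protein, from 59.4 and 60.8 to 23.4 and 22.5. These genes fell while they held a region called for H3K9 acylation at E16.5 and not at E13.5. The 25 lactylated gained regions with no E16.5 H3K18la peak had a median width of 765 bp, against 1789 bp for the 1019 with both, and median E13.5 H3K18la folds of 3.95 and 3.74 against 4.79 and 4.68.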
